A study of Mus musculus with 5 samples.

Results

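The BCL2 family genes measured here are 10 mouse genes that code for proteins deciding whether mitochondria release the factors that start cell death: Bcl2, Bcl2l1, Mcl1, Bcl2l11, Bax, Bak1, Bid, Bad, Bbc3 and Pmaip1. They were chosen by gene symbol and not by a rule on their levels, but with earlier results of these data known. They are 10 of 35275 genes in the deposited table. All 10 passed the filter on low values, and all 10 had at least 10 reads in every library. RNA was sequenced from sorted spleen cells of wild-type C57BL/6 mice aged 3 months, in 1 library of regulatory CD8+ T cells (CD8 Treg), 2 of regulatory CD4+ T cells (CD4 Treg) and 2 of a population labelled CD49lo. The series compares both Treg types with CD8+ cells resembling effectors, so CD49lo is that population by elimination. The protocol in the labels enriches for CD8 and then sorts, without naming the sort markers. All groups share strain, genotype, age and tissue, and none carries a transgene or received an agent according to the labels. It is not stated whether replicates came from separate mice, so p-values reflect how far these samples scatter, and that scatter may be technical. Every CD8 Treg value is n = 1 and is assumed in the tests to vary like the replicated groups.

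The family works through binding between its own proteins. The survival members BCL2, BCL-xL (from Bcl2l1) and MCL1 hold the effectors BAX and BAK in check and sequester the death-promoting members that carry a single homology region, BH3. Those BH3-only proteins are BIM (from Bcl2l11), BID, BAD, PUMA (from Bbc3) and NOXA (from Pmaip1), and they carry signals such as cytokine loss and DNA damage. In T cells, cytokines that signal through STAT5 maintain BCL2 and MCL1, Foxp3+ Tregs are known to depend on MCL1, and BIM is the main trigger of death when cytokine is withdrawn.

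The coding stretch around the BH3 core is shown because it is what members of opposite function share. Each line gives 48 bases, 5′ to 3′ on the coding strand, from GENCODE M21 on GRCm38. Capitals mark the 18 bases, or 6 codons, of the conserved core. The search looked in the translated sequence for L, then A/R/K, R/Q/E/L, A/V/I/M and G/A/S, then D. Coding sequences without exactly 1 match were passed over, so a single match was a condition of the search. Pmaip1 was not searched.
Bcl2: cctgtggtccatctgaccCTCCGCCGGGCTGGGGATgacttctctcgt
Bcl2l1: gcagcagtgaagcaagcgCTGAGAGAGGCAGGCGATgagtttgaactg
Mcl1: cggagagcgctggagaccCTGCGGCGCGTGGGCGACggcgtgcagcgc
Bax: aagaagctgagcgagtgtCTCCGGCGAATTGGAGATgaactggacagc
Bak1: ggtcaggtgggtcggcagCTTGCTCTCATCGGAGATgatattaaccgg
Bcl2l11: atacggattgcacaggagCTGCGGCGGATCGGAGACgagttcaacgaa
Bid: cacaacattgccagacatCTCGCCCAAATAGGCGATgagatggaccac
Bad: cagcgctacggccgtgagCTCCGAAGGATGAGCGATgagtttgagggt
Bbc3: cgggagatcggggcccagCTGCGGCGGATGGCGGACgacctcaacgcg

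These stretches lie at chr1:106712572-106712619 (Bcl2, minus strand), chr2:152829694-152829741 (Bcl2l1, minus), chr3:95659418-95659465 (Mcl1, plus), chr7:45465994-45466041 (Bax, minus) and chr17:27022528-27022575 (Bak1, minus). Those of the BH3-only genes lie at chr2:128147132-128147179 (Bcl2l11, plus), chr6:120897286-120897333 (Bid, minus), chr19:6950774-6950821 (Bad, plus) and chr7:16313755-16313802 (Bbc3, plus). Among the 36 pairs of these 9 genes, the cores had a median of 11 identical bases of 18. The closest pair, with 15 identical bases, was Bcl2l11 and Bbc3, the genes for the death activators BIM and PUMA. Bcl2l1 and Bak1, a survival gene and an effector gene, were the most distant pair with 7. All 9 genes, survival members, effectors and BH3-only members alike, had a transcript with the core. Transcripts without it were passed over, so this is no test of how widely the core is shared.

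Depth was 6073243 reads in genes for CD8 Treg, 6203090 and 5441444 for CD4 Treg, and 8354971 and 6564411 for CD49lo. Values are RPKM (reads scaled to gene length and to library depth), and the members ranged from 55 to 5158 reads and from 4.98 to 272 RPKM in a library. Foxp3, the defining factor of CD4 Tregs, stood at 0.387 RPKM in CD8 Treg, 146 and 146 in CD4 Treg, and 1.66 and 0.795 in CD49lo. Cd8a stood at 187 RPKM in CD8 Treg, 0.412 and 0.352 in CD4 Treg, and 215 and 255 in CD49lo. Both genes matched the CD4 and CD8 parts of the labels, but they cannot tell CD8 Treg from CD49lo. The female transcript Xist stood at 0.0834 RPKM in CD8 Treg, 35.5 and 27.2 in CD4 Treg, and 0.0269 and 0 in CD49lo, so sex and CD4 Treg identity cannot be told apart. A single long noncoding RNA, Gm26917, took 6.86% of CD8 Treg reads (exact 95% interval 6.84 to 6.88, counting error only), against 3.33% to 4.16% in the other 4 libraries, and CD8 Treg had the lowest scaling factor, 0.9349.

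**Figure D1:**
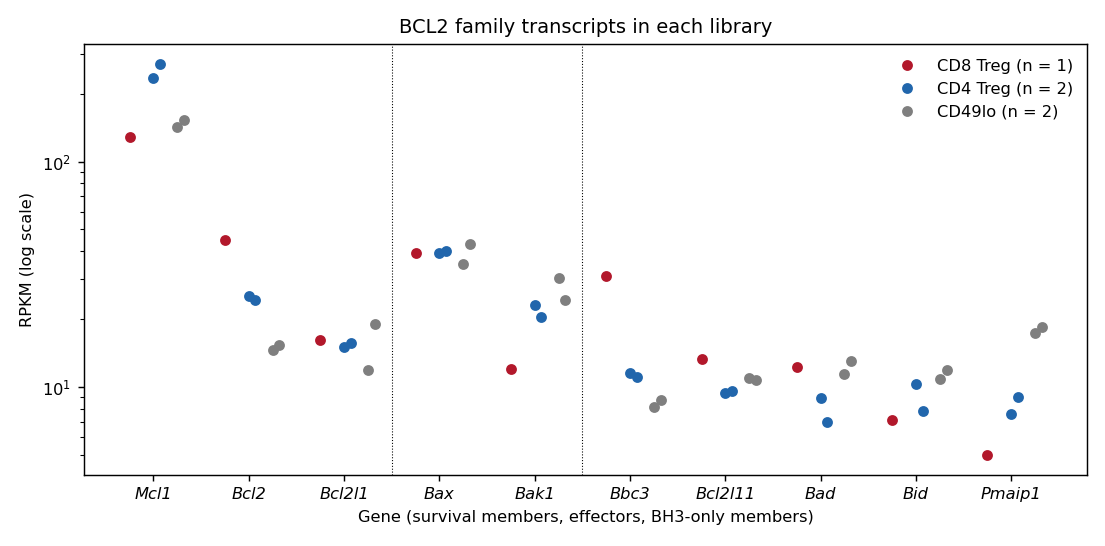
RPKM of each member (log axis) in the CD8 Treg library, the 2 CD4 Treg libraries and the 2 CD49lo libraries, 1 point a library. Mcl1 is highest in every library, Bcl2 and Bbc3 stand highest in CD8 Treg, and Pmaip1 is lowest there.

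In CD8 Treg, the survival gene Bcl2 and the death gene Bbc3 were both higher than in CD49lo, by 3.22-fold and 3.88-fold on the scale of RPKM plus 0.5. The effector gene Bak1 and the BH3-only gene Pmaip1 were lower, by 2.02-fold and 3.07-fold. With limma and Benjamini-Hochberg adjustment over 13298 genes, 4 of the 10 members had an adjusted p under 0.05, against 5.37% of all genes tested. Of these, 2 were higher, against 1.71% of all genes, and 2 were lower, against 3.65%. The members' median log2 fold change was 0.14, and that of all genes was -0.04. Their median absolute log2 fold change was 0.45, against 0.32 over all genes. Without CD49lo replicate 1 or without CD49lo replicate 2, limma called 0 members and 0 genes, with 5 members at an unadjusted p under 0.05 each time. Limma lost Bak1 without CD4 Treg replicate 1 and both Bak1 and Pmaip1 without CD4 Treg replicate 2. Limma-voom on the recovered reads kept the direction of these 4 members when any of these libraries was left out. CD8 Treg lay outside both CD49lo libraries for these 4 members, so their direction could hardly change. With a CD4 Treg library left out, the limma-voom variance prior had infinite weight, so no gene's own spread was used.

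Against CD4 Treg, CD8 Treg again had more Bcl2 (1.94-fold) and more Bbc3 (2.89-fold), and it had less Mcl1 (1.82-fold) and less Bak1 (1.65-fold). Limma called 4 of 10 members, against 16.9% of all genes. The 2 higher members compare with 8.51% of all genes called higher, and the 2 lower members with 8.35% called lower. The median log2 fold change of the members was 0.13, against 0.02 over all genes, and the median absolute value was 0.64, against 0.40. Both comparisons use the same CD8 Treg library. Without CD49lo replicate 1 or 2, limma again called 0 members, with 5 at an unadjusted p under 0.05 each time, and limma-voom called 5 each time. Limma and limma-voom called 3, without Bak1, when CD4 Treg replicate 1 or 2 was left out.

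CD4 Treg differed from CD49lo in 3 members. Mcl1 (1.74-fold) and Bcl2 (1.66-fold) were higher, and Pmaip1 was lower (2.06-fold). That is 3 of 10, against 22.2% of all genes tested, so the share of members called was near that of all genes. The 2 higher members stand against 9.41% of all genes and the 1 lower member against 12.8%. The members' median log2 fold change was -0.05, against -0.03 over all genes, with a median absolute value of 0.36 for both. Without CD49lo replicate 1 or 2, limma called 0 members, with 3 at an unadjusted p under 0.05 each time, and limma-voom called 3 each time. Without CD4 Treg replicate 1, both lost Pmaip1 and called 2. This comparison shares its CD4 Treg libraries with the second comparison and its CD49lo libraries with the first.

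**Figure D2:**
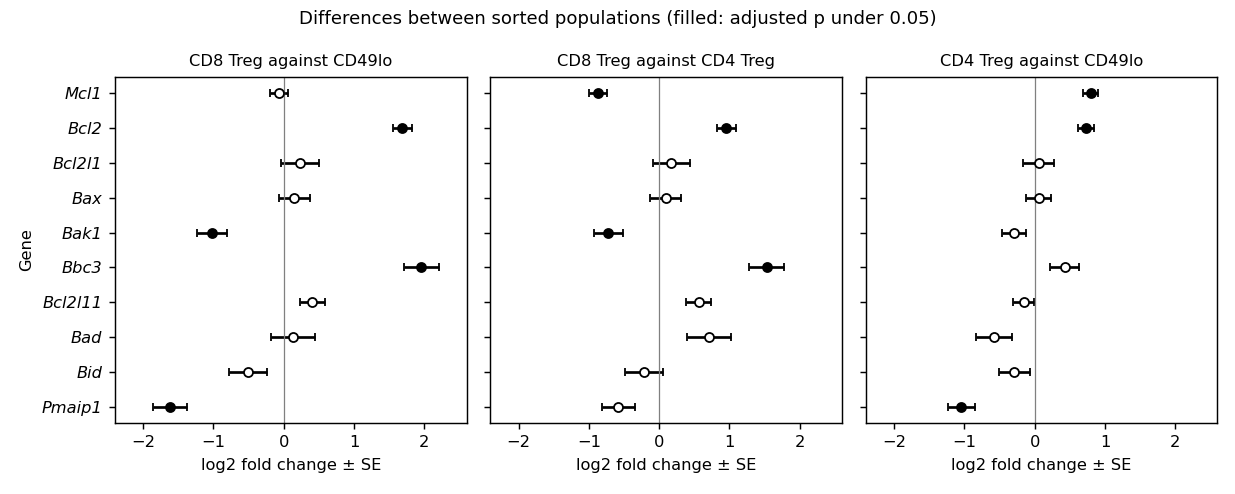
Log2 fold change of each member with its standard error, in CD8 Treg against CD49lo, CD8 Treg against CD4 Treg and CD4 Treg against CD49lo (filled points, adjusted p under 0.05 by limma). Bcl2 and Bbc3 lie to the right of 0 in both CD8 Treg panels, and Pmaip1 lies to the left of 0 in all 3 panels.

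Among the survival members, Bcl2 (ENSMUSG00000057329, chromosome 1, 106538178 to 106714274, minus strand, mm10) codes for the founding protein of the family. It stood at 44.9 RPKM in CD8 Treg, 25.2 and 24.3 in CD4 Treg, and 14.6 and 15.4 in CD49lo. The 3 groups did not overlap, and CD8 Treg stood highest, CD49lo lowest. The exact Poisson interval of the CD8 Treg value, for counting error only, was 42.9 to 46.9. The log2 fold change was 1.69 ± 0.13 (SE) in CD8 Treg against CD49lo (limma, adjusted p = 0.000396), 0.95 ± 0.13 in CD8 Treg against CD4 Treg (adjusted p = 0.00123) and 0.73 ± 0.11 in CD4 Treg against CD49lo (adjusted p = 0.00113). The mean was 24.8 ± 0.682 RPKM in CD4 Treg and 14.98 ± 0.592 in CD49lo (SD, n = 2 each).

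Mcl1 (ENSMUSG00000038612, chromosome 3, 95658721 to 95663176, plus strand) codes for a short-lived survival protein. It was the most abundant member everywhere, at 128 RPKM in CD8 Treg, 235 and 272 in CD4 Treg, and 143 and 154 in CD49lo. Both CD4 Treg libraries stood above all the others, and the CD8 Treg value lay below both CD49lo libraries. Mcl1 fell in CD8 Treg against CD4 Treg by 0.87 ± 0.13 on the log2 scale (limma, adjusted p = 0.00166). It rose in CD4 Treg against CD49lo by 0.80 ± 0.10 (limma, adjusted p = 0.000555). The value of -0.07 ± 0.13 in CD8 Treg against CD49lo (limma, adjusted p = 0.815) did not pass.

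Bcl2l1 (ENSMUSG00000007659, chromosome 2, 152780668 to 152831728, minus strand), the BCL-xL gene, stood at 16.2 RPKM in CD8 Treg, 15.1 and 15.7 in CD4 Treg, and 11.8 and 19.0 in CD49lo. The CD49lo libraries enclosed all the others, so the groups overlapped. No comparison passed, and the log2 fold changes were 0.23 ± 0.27 in CD8 Treg against CD49lo, 0.18 ± 0.27 in CD8 Treg against CD4 Treg and 0.06 ± 0.22 in CD4 Treg against CD49lo. The adjusted p was 0.703, 0.716 and 0.891 (limma), and differences of the size of these errors were not detectable.

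Summed over the 3 survival members, RPKM was 189 in CD8 Treg, 275 and 312 in CD4 Treg, and 169 and 188 in CD49lo. Mcl1 gave 67.7% of that sum in CD8 Treg, 85.3% and 87.2% in CD4 Treg, and 84.4% and 81.7% in CD49lo. Bcl2 gave 23.7% in CD8 Treg, 9.18% and 7.78% in CD4 Treg, and 8.61% and 8.19% in CD49lo. The ratio of Mcl1 to Bcl2 was 2.86 in CD8 Treg, 9.30 and 11.2 in CD4 Treg, and 9.80 and 9.97 in CD49lo. CD8 Treg thus stood apart in the balance between Bcl2 and Mcl1, while CD4 Treg and CD49lo overlapped in it. These sums and ratios carry no test.

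**Figure D3:**
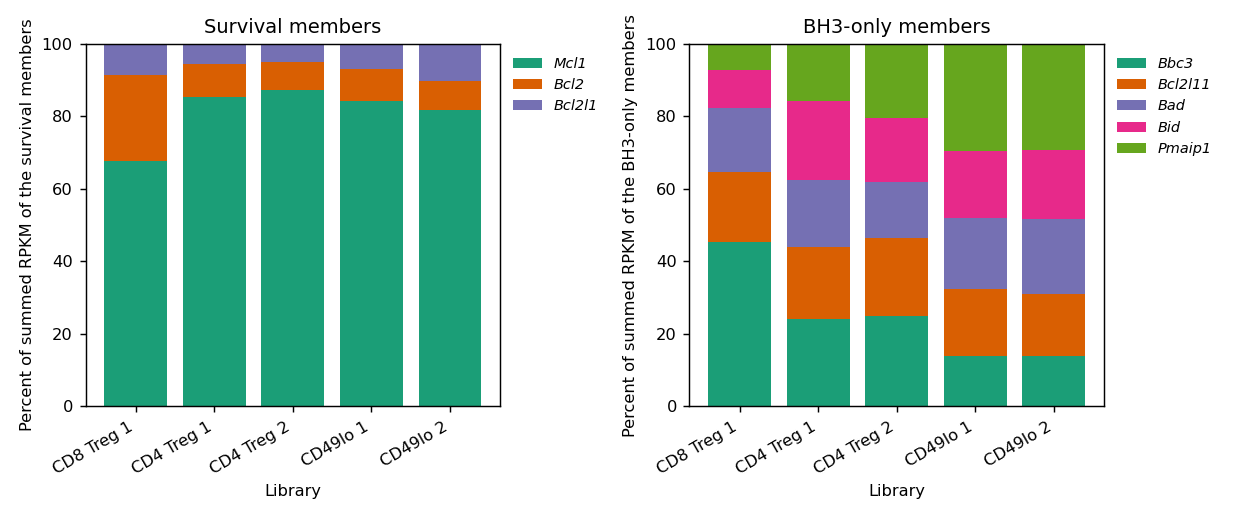
Percent of the summed RPKM of the survival members (left) and of the BH3-only members (right) that each gene gives, 1 bar a library in the order CD8 Treg, CD4 Treg, CD49lo. Bcl2 gives 23.7% of the survival sum and Bbc3 45.3% of the BH3-only sum in CD8 Treg.

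Of the effectors, which form the pores in the outer mitochondrial membrane, Bak1 (ENSMUSG00000057789, chromosome 17, 27019810 to 27029009, minus strand) stood at 12.003 RPKM in CD8 Treg, 23.0 and 20.4 in CD4 Treg, and 30.3 and 24.4 in CD49lo. The CD8 Treg library was below all the others, with an exact Poisson interval of 10.3 to 13.9. Bak1 fell in CD8 Treg against CD49lo by 1.02 ± 0.21 on the log2 scale (limma, adjusted p = 0.0251). It fell in CD8 Treg against CD4 Treg by 0.72 ± 0.21 (limma, adjusted p = 0.0451), close to the threshold, and limma-voom did not call it there. CD4 Treg and CD49lo did not overlap, but the difference of -0.29 ± 0.17 did not pass (limma, adjusted p = 0.273).

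Bax (ENSMUSG00000003873, chromosome 7, 45461695 to 45466898, minus strand) stood at 39.4 RPKM in CD8 Treg, 39.3 and 40.2 in CD4 Treg, and 35.3 and 42.9 in CD49lo. The CD49lo libraries again enclosed all the others. The log2 fold changes were 0.15 ± 0.22, 0.09 ± 0.22 and 0.06 ± 0.18 in CD8 Treg against CD49lo, CD8 Treg against CD4 Treg and CD4 Treg against CD49lo, and none passed (limma, adjusted p = 0.772, 0.823 and 0.866). The ratio of Bax to Bak1 was 3.28 in CD8 Treg, 1.71 and 1.97 in CD4 Treg, and 1.16 and 1.76 in CD49lo.

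Among the BH3-only genes, Bbc3 (ENSMUSG00000002083, chromosome 7, 16309616 to 16318205, plus strand), which codes for the p53 and FOXO target PUMA, stood at 31.1 RPKM in CD8 Treg, 11.6 and 11.04 in CD4 Treg, and 8.12 and 8.73 in CD49lo. CD8 Treg stood well above the other 4 libraries, with an exact Poisson interval of 27.9 to 34.6 from 343 reads. Bbc3 rose in CD8 Treg against CD49lo by 1.96 ± 0.25 on the log2 scale (limma, adjusted p = 0.00289) and against CD4 Treg by 1.53 ± 0.25 (limma, adjusted p = 0.00287). The CD4 Treg libraries lay above the CD49lo libraries, but the difference of 0.43 ± 0.20 did not pass (limma, adjusted p = 0.176). Bbc3 was below only Mcl1, Bcl2 and Bax among the members in CD8 Treg, and was the lowest member in both CD49lo libraries.

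Pmaip1 (ENSMUSG00000024521, chromosome 18, 66458604 to 66465550, plus strand) codes for NOXA, which binds MCL1 in particular. It stood at 4.98 RPKM in CD8 Treg, 7.55 and 9.03 in CD4 Treg, and 17.3 and 18.4 in CD49lo. The groups did not overlap, and their order, with CD8 Treg lowest and CD49lo highest, was the reverse of that of Bcl2. The CD8 Treg value rests on 80 reads, with an exact Poisson interval of 3.95 to 6.20. Pmaip1 fell in CD8 Treg against CD49lo by 1.62 ± 0.24 on the log2 scale (limma, adjusted p = 0.00581) and in CD4 Treg against CD49lo by 1.04 ± 0.20 (limma, adjusted p = 0.00423). The value of -0.58 ± 0.24 in CD8 Treg against CD4 Treg did not pass (limma, adjusted p = 0.142).

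Bcl2l11 (ENSMUSG00000027381, chromosome 2, 128126038 to 128162547, plus strand), the BIM gene, stood at 13.2 RPKM in CD8 Treg, 9.41 and 9.56 in CD4 Treg, and 10.9 and 10.8 in CD49lo. The groups did not overlap, with CD8 Treg highest and CD4 Treg lowest. No comparison passed in the main fit. The log2 fold change was 0.41 ± 0.18 in CD8 Treg against CD49lo (limma, adjusted p = 0.249). It was 0.56 ± 0.18 in CD8 Treg against CD4 Treg (limma, adjusted p = 0.0580) and -0.16 ± 0.14 in CD4 Treg against CD49lo (limma, adjusted p = 0.490). In CD8 Treg against CD4 Treg, Bcl2l11 gained a call in 3 of 18 alternative settings, among them a stricter filter of 50 reads. Bcl2 to Bcl2l11, a survival gene over a gene whose protein it binds, was 3.39 in CD8 Treg, 2.68 and 2.54 in CD4 Treg, and 1.34 and 1.43 in CD49lo.

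Bid (ENSMUSG00000004446, chromosome 6, 120891930 to 120916853, minus strand) links death receptors to mitochondria and stood at 7.16 RPKM in CD8 Treg, 10.3 and 7.84 in CD4 Treg, and 10.9 and 11.9 in CD49lo. The CD49lo libraries were the highest and the CD8 Treg library the lowest, but no difference passed, with log2 values of -0.50 ± 0.27, -0.21 ± 0.27 and -0.29 ± 0.22 in CD8 Treg against CD49lo, CD8 Treg against CD4 Treg and CD4 Treg against CD49lo. Bid overlaps Bcl2l13 on the opposite strand, which had 278 reads in CD8 Treg, 333 and 396 in CD4 Treg, and 495 and 361 in CD49lo. The spans of Bid and Bcl2l13 share only 120891930 to 120892842. Since the strand setting of the counting is not given in the sources used here, reads in that stretch cannot be told apart.

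Bad (ENSMUSG00000024959, chromosome 19, 6941861 to 6951898, plus strand), whose protein is held inactive by AKT phosphorylation, stood at 12.3 RPKM in CD8 Treg, 8.89 and 6.97 in CD4 Treg, and 11.4 and 13.02 in CD49lo. The CD4 Treg libraries were below all others, and the CD8 Treg value lay between the CD49lo libraries. No difference passed, and the log2 values were 0.14 ± 0.31, 0.71 ± 0.31 and -0.57 ± 0.26 in the same order of comparisons. Bad overlaps Gpr137 on the opposite strand, which had 32 reads in CD8 Treg, 25 and 32 in CD4 Treg, and 33 and 32 in CD49lo, against 108 reads of Bad in CD8 Treg, 80 and 55 in CD4 Treg, and 138 and 124 in CD49lo. As for Bid, reads where the genes overlap cannot be told apart.

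Summed over the 5 BH3-only genes, RPKM was 68.8 in CD8 Treg, 47.8 and 44.4 in CD4 Treg, and 58.6 and 62.8 in CD49lo. Bbc3 gave 45.3% of that sum in CD8 Treg, 24.2% and 24.9% in CD4 Treg, and 13.9% and 13.9% in CD49lo. Pmaip1 gave 7.24% in CD8 Treg, 15.8% and 20.3% in CD4 Treg, and 29.6% and 29.3% in CD49lo. The leading BH3-only transcript thus differed between CD8 Treg and CD49lo, Bbc3 in CD8 Treg and Pmaip1 in CD49lo. The ratio of Bbc3 to Pmaip1 was 6.25 in CD8 Treg, 1.53 and 1.22 in CD4 Treg, and 0.468 and 0.474 in CD49lo, with no overlap between groups.

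The sum of survival members over the sum of BH3-only members was 2.75 in CD8 Treg, 5.76 and 7.02 in CD4 Treg, and 2.89 and 2.99 in CD49lo. With Mcl1 left out of the survival sum, the same ratio was 0.888 in CD8 Treg, 0.844 and 0.899 in CD4 Treg, and 0.451 and 0.548 in CD49lo. The place of CD8 Treg changed with Mcl1: with it, CD8 Treg lay just under CD49lo, and without it, within the range of CD4 Treg. The ratio of Mcl1 to Pmaip1 was 25.8 in CD8 Treg, 31.1 and 30.1 in CD4 Treg, and 8.24 and 8.34 in CD49lo, so both Treg types lay above CD49lo. These are ratios of RNA levels and say nothing of protein.

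**Figure D4:**
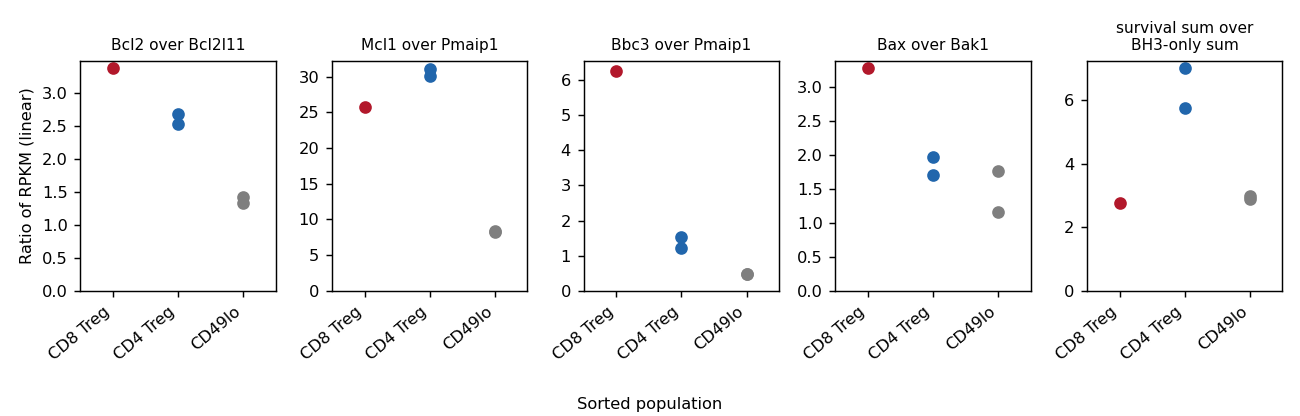
Ratios of RPKM (linear axes from 0) between members or sums of members, 1 point a library, in CD8 Treg, CD4 Treg and CD49lo. Bcl2 over Bcl2l11 is highest in CD8 Treg at 3.39 and Bbc3 over Pmaip1 at 6.25, while the survival sum over the BH3-only sum is highest in CD4 Treg.

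Libraries of sorted cells can hold RNA of other cells, and fewer cells of a type and less RNA per cell cannot be told apart in bulk samples. Limma called 5.37% of all genes in CD8 Treg against CD49lo and 16.9% in CD8 Treg against CD4 Treg. In CD4 Treg against CD49lo it called 22.2%. B cell marker genes summed to 558 RPKM in CD8 Treg, 66.7 and 64.6 in CD4 Treg, and 1137 and 1248 in CD49lo. Of 11 such table rows, limma called 1 lower in CD8 Treg against CD49lo (4 at an unadjusted p under 0.05, and 4 called lower by limma-voom), 10 higher in CD8 Treg against CD4 Treg and 11 lower in CD4 Treg against CD49lo. Fcer2a in CD4 Treg replicate 2 and, in both CD4 Treg libraries, 1 of the 2 identifiers of Cr2 were at 0. Myeloid markers summed to 264 RPKM in CD8 Treg, 15.6 and 3.43 in CD4 Treg, and 529 and 471 in CD49lo, with 1 of 8 lower in the first comparison, 8 higher in the second and 8 lower in the third, and Cd14, Itgam, Fcgr3, S100a8 and S100a9 were at 0 in CD4 Treg replicate 2. NK cell markers summed to 235 RPKM in CD8 Treg, 9.80 and 3.93 in CD4 Treg, and 224 and 314 in CD49lo. In the first comparison limma called 0 of 8 (3 at an unadjusted p under 0.05, and 3 called by limma-voom). In the second it called 7 higher and 1 lower, and in the third 1 higher and 7 lower. The 1 that went the other way was Khdc1a in both. Limma-voom called 6 in the second and 7 in the third. Ncr1 and Klra8 were at 0 in both CD4 Treg libraries, Klre1 and Fcer1g in CD4 Treg replicate 2, and Khdc1a in CD8 Treg and both CD49lo libraries. Dendritic cell markers summed to 8.004 RPKM in CD8 Treg, 0.865 and 0.778 in CD4 Treg, and 41.7 and 43.4 in CD49lo. Genes of dividing cells summed to 136 RPKM in CD8 Treg, 116 and 123 in CD4 Treg, and 378 and 297 in CD49lo, with 7 of 8 lower in CD8 Treg and 8 of 8 lower in CD4 Treg, each against CD49lo. The part of these in the members' differences was not tested. Whether RNA of the NK cell markers came from other cells or from the sorted cells themselves cannot be told apart in bulk samples.

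Other genes of the death and survival pathways were read from the same fits. Their counts stand against the same shares of all genes called, 5.37%, 16.9% and 22.2% in the order above. The lists are small, and a share near these says nothing particular of a list. Of 12 further BCL2 family genes tested, 2 were lower in CD8 Treg against CD49lo by limma and 1 by limma-voom. Bcl2a1d, a copy of the survival gene for A1, stood at 8.01 RPKM in CD8 Treg, 6.16 and 13.4 in CD4 Treg, and 31.8 and 40.2 in CD49lo. Its log2 fold change was -1.96 ± 0.44 (limma, adjusted p = 0.0344). The other, the BH3-only gene Bik, had 0 reads in CD8 Treg, 3 and 3 in CD4 Treg, and 20 and 11 in CD49lo. In CD8 Treg against CD4 Treg limma called 0 of 12, with 4 at an unadjusted p under 0.05, and limma-voom also called 0. In CD4 Treg against CD49lo, 1 was higher (Bcl2l15) and 2 were lower (Bcl2a1a and Bcl2a1d), against 9.41% and 12.8% of all genes. The Bcl2a1 genes are near-identical copies whose reads the counting could split, so their values are uncertain.

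The next list held 14 genes of the mitochondrial pathway, not all of which act below BAX and BAK. Of these, 3 were lower and 0 higher in CD8 Treg against CD49lo by limma, and 1 was lower by limma-voom. Among them was Apaf1, the scaffold of the apoptosome, at 4.31 RPKM in CD8 Treg, 6.96 and 5.31 in CD4 Treg, and 9.46 and 9.22 in CD49lo. The groups did not overlap for Apaf1, with CD8 Treg lowest and CD49lo highest, and its log2 fold change was -0.91 ± 0.22 (limma, adjusted p = 0.0442). In CD8 Treg against CD4 Treg, 1 of 14 was lower and 0 higher, and Apaf1 did not pass, at -0.36 ± 0.22 (limma, adjusted p = 0.314). In CD4 Treg against CD49lo limma called 0 of 14, with 1 at an unadjusted p under 0.05, and limma-voom called 1.

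Of 6 inhibitor of apoptosis genes, only Birc5, which is also a gene of dividing cells, was called in CD8 Treg against CD49lo, at -2.29 ± 0.38 (limma, adjusted p = 0.00994). Against CD4 Treg, CD8 Treg had less Birc2, Birc3 and Naip5. Birc2 stood at 24.4 RPKM in CD8 Treg, 48.6 and 50.2 in CD4 Treg, and 28.0 and 31.6 in CD49lo, with a log2 fold change of -0.90 ± 0.15 (limma, adjusted p = 0.00293). In CD4 Treg against CD49lo, Birc2, Birc3 and Naip5 were higher and Birc5 lower, so the CD4 Treg libraries stood above the other 3 for Birc2 and Birc3.

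In the death receptor pathway, 1 of 14 genes was called in CD8 Treg against CD49lo, near the 5.37% of all genes. In CD8 Treg against CD4 Treg 4 were called (2 higher, 2 lower), against 16.9% of all genes. In CD4 Treg against CD49lo 5 were called (3 higher, 2 lower), against 22.2%. The receptor gene Fas stood at 4.76 RPKM in CD8 Treg, 28.5 and 36.6 in CD4 Treg, and 18.4 and 18.1 in CD49lo, with no overlap between groups. It fell by 1.71 ± 0.25 on the log2 scale in CD8 Treg against CD49lo (limma, adjusted p = 0.00581) and by 2.54 ± 0.25 against CD4 Treg (limma, adjusted p = 0.000181). Its ligand gene Fasl stood at 12.9 RPKM in CD8 Treg, 1.42 and 0.760 in CD4 Treg, and 20.8 and 48.3 in CD49lo. Fasl was higher in CD8 Treg than in CD4 Treg, at 3.21 ± 0.48 (limma, adjusted p = 0.00181), while the CD8 Treg value lay below both CD49lo libraries and did not pass there (limma, adjusted p = 0.239). Casp8, whose product cleaves BID, fell by 0.51 ± 0.14 in CD8 Treg against CD4 Treg (limma, adjusted p = 0.0411).

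Bbc3, Pmaip1 and Bax are known p53 targets. For p53 and its other targets, limma called 0 of 14 in CD8 Treg against CD49lo, with 4 at an unadjusted p under 0.05, and limma-voom also called 0. Trp53 itself stood at 33.2 RPKM in CD8 Treg, 30.9 and 30.9 in CD4 Treg, and 27.0 and 20.5 in CD49lo, and passed in none of the comparisons. Of the 14, 4 were lower and 0 higher in CD8 Treg against CD4 Treg. Sesn1, a stress-response gene, stood at 15.3 RPKM in CD8 Treg, 46.9 and 48.8 in CD4 Treg, and 16.5 and 16.4 in CD49lo, a log2 fold change of -1.51 ± 0.16 in CD8 Treg against CD4 Treg (limma, adjusted p = 0.000239). The others were Trp53inp1, Ccng1 and Sesn2. Bbc3 was higher in the same comparison, and the other 10 of the 14 were not called. The activity of p53 was not measured. In CD4 Treg against CD49lo, 3 of 14 (Sesn1, Trp53inp1 and Ccng1) were higher and 0 lower.

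Among 16 regulators of the members' stability or phosphorylation, Pim2 was the only one called in CD8 Treg against CD49lo. This kinase phosphorylates BAD, and it stood at 48.3 RPKM in CD8 Treg, 9.93 and 10.8 in CD4 Treg, and 25.05 and 19.6 in CD49lo. Its log2 fold change was 1.24 ± 0.23 against CD49lo (limma, adjusted p = 0.0144) and 2.28 ± 0.23 against CD4 Treg (limma, adjusted p = 0.000184). The related kinase gene Pim1 stood at 41.8 RPKM in CD8 Treg, 132 and 119 in CD4 Treg, and 38.6 and 48.8 in CD49lo. Pim1 fell by 1.47 ± 0.16 in CD8 Treg against CD4 Treg (limma, adjusted p = 0.00032), while its CD8 Treg value lay between the CD49lo libraries and did not pass there, at 0.08 ± 0.16 (limma, adjusted p = 0.848). In all, 2 of 16 were higher and 3 lower in CD8 Treg against CD4 Treg, against 8.51% and 8.35% of all genes. In CD4 Treg against CD49lo, 4 were higher and 2 lower, against 9.41% and 12.8%.

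Among 12 genes of cytokine receptor chains and STAT5 signalling, 3 were higher and 1 lower in CD8 Treg against CD49lo by limma, and 3 were higher and 0 lower by limma-voom. Il7r, the receptor for a cytokine that maintains BCL2 in T cells, stood at 133 RPKM in CD8 Treg, 45.1 and 52.9 in CD4 Treg, and 68.8 and 66.1 in CD49lo. It rose by 1.11 ± 0.14 on the log2 scale in CD8 Treg against CD49lo (limma, adjusted p = 0.00289) and by 1.55 ± 0.14 against CD4 Treg (limma, adjusted p = 0.000114). Il2rb stood at 302 RPKM in CD8 Treg, 267 and 277 in CD4 Treg, and 152 and 141 in CD49lo. Cish, a target of STAT5, stood at 0.491 RPKM in CD8 Treg, 28.0 and 23.6 in CD4 Treg, and 2.78 and 7.49 in CD49lo, the lowest value being that of CD8 Treg. Of the 12, 2 were higher and 5 lower in CD8 Treg against CD4 Treg, Il2ra and Socs1 among those lower, and in CD4 Treg against CD49lo 8 were higher and 1, Il7r, was lower.

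**Figure D5:**
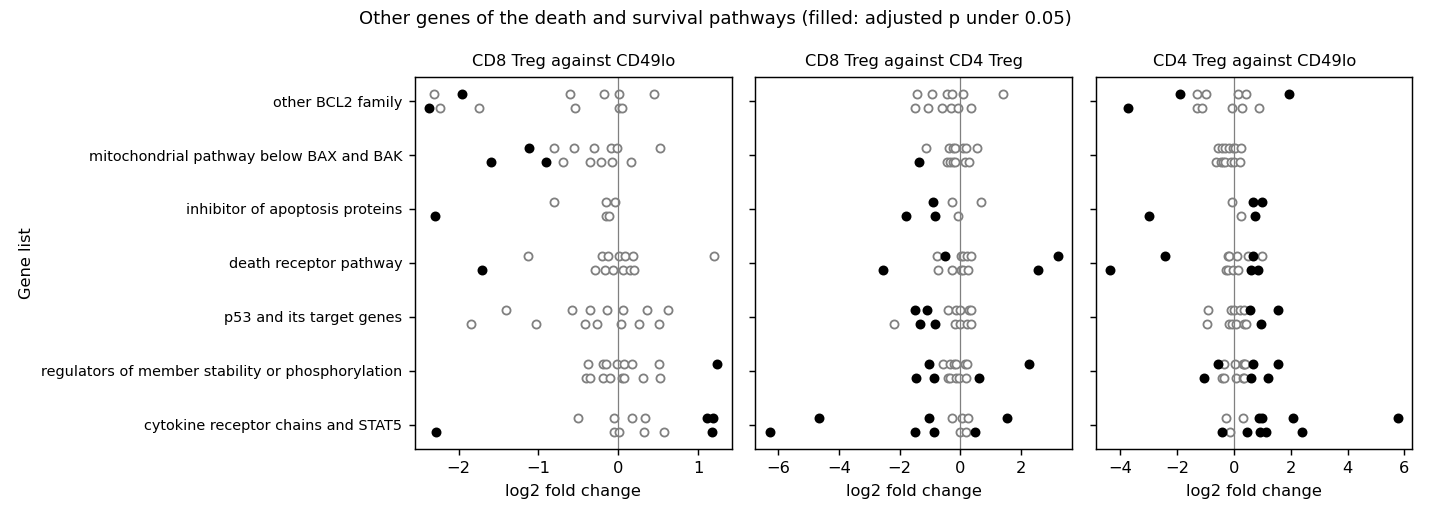
Log2 fold changes of the genes of the other death and survival lists, 1 point a gene and 1 row a list, in CD8 Treg against CD49lo, CD8 Treg against CD4 Treg and CD4 Treg against CD49lo (filled points, adjusted p under 0.05 by limma). In CD8 Treg against CD49lo the called genes of the list labelled mitochondrial pathway below BAX and BAK all lie to the left of 0. Those of the cytokine list lie on both sides, although limma-voom called 0 of the cytokine list lower.

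Promoter windows of 300 bases, 250 before to 50 after a start, were taken from the RefSeq table (GRCm38.p6) for 9 members, 15 windows in all. Pmaip1 was left out of this search beforehand, so the counts say nothing of its promoter. The FOXO letters GTAAACA, searched on both strands, were in 2 of the 15, against 3.65% of 32851 windows. They are shown because the BIM and PUMA genes hold them, in capitals within 30 bases on the plus strand at chr2:128125800-128125829 and chr7:16310083-16310112.
Bcl2l11: aagacactaggGTAAACAcgccggggtggg
Bbc3: tctggcgggttTGTTTACaaacaatggggt

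These lie 227 bases before the Bcl2l11 start and 167 before a Bbc3 start. Foxo1, which codes for a factor of that class, stood at 31.9 RPKM in CD8 Treg, 64.6 and 62.1 in CD4 Treg, and 31.3 and 25.2 in CD49lo. Foxo3, of the same class, stood at 18.9 RPKM in CD8 Treg, 24.2 and 20.6 in CD4 Treg, and 12.9 and 15.8 in CD49lo. Binding of these factors was not measured. A RUNX match, TGTGGT, was in 1 of the 15 windows, that of Bak1, against 16.8% of all windows. The STAT letters TTCNNNGAA (8.30% of all windows), the CRE letters TGACGTCA (1.79%) and the TATA box TATAAA (13.6%) were in 0 of the 15. The GC box GGGCGG was in 10, against 35.7% of all windows. A match describes letters only.

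The genes whose profile over the 5 libraries was nearest to that of Bcl2, by root mean square distance of centred log2 values, were Prss41 (0.0684), Tmem170 (0.0965) and Bbs2 (0.154). All 3 were low, at no more than 3.24 RPKM in any library. Prss41 was at 1.13 RPKM in CD8 Treg and at 0 in both CD49lo libraries, so its closeness depends on the pseudocount of 0.5. Nearest to Bcl2l11 were Oxct1 (0.0296), Fam83h (0.0419) and Impdh1 (0.0426). Fam83h was at no more than 0.472 RPKM in any library, below the pseudocount of 0.5, so its closeness depends on that pseudocount. Oxct1 stood at 39.9 RPKM in CD8 Treg, 27.5 and 28.1 in CD4 Treg, and 31.2 and 32.2 in CD49lo, in the same order of groups as Bcl2l11.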

How the data were processed

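The authors deposited 1 table of RPKM for all 5 libraries. CASAVA, STAR and the build mm10 appear, without tool versions, per the submitters' processing notes. The counting tool, annotation and strand setting are not given in the sources used here. Each deposited RPKM value, times gene length, was a whole multiple of a read within 0.02 in 100% of cases, so reads were recovered. All sample columns were used, and 0 columns of per-sample values were left out. RPKM were scaled by TMM factors and tested as log2(RPKM + 0.5) in limma 3.58.1 (R 4.3.3) over all 5 libraries in 3 groups, with no covariate, 2 residual degrees of freedom and a variance prior following mean log2 RPM. Genes were kept with 15 reads in total and, in at least 1 library, 10 reads when scaled to median depth. P-values are two-sided, adjusted by Benjamini-Hochberg over 13298 genes, and called under 0.05. The main test was on log2 RPKM, the deposited unit, and no negative binomial count model was fitted. Limma-voom on recovered reads, other pseudocounts, filters, scalings and priors, and leaving out each replicate were tried as alternatives, limma-voom without a replicate after seeing the data. The procedure was tested on simulated data. The members and gene lists were chosen with earlier results of these data known. All members are named, list genes are named when called and among the 4 smallest p of their list or when a sentence on a member needs them, and 3 nearest profiles are named for Bcl2 and Bcl2l11. No sequence of Pmaip1 is printed. Some genes that the naming rule selects are not reported here.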

Additional observations from a re-analysis of the deposited data

How the results depend on the processing

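None of the 11 called member differences reversed in up to 20 settings, but this was largely fixed in advance. Changing the filter or the prior leaves a fold change as it is. Leaving out a library of a group outside the comparison hardly moves it. In all 11 the compared groups did not overlap, so leaving out 1 of their libraries could hardly reverse them either. Bak1 lost its call most often. Values that changed sign belonged to members without a call. Without CD49lo replicate 1, Bcl2l1 in CD8 Treg against CD49lo was -0.0805 by limma and -0.0822 by limma-voom (limma range over left-out replicates -0.0805 to 0.545). Bcl2l1 in CD4 Treg against CD49lo was then -0.249 by limma and -0.257 by limma-voom (limma range -0.249 to 0.376), and Bax -0.0581 and -0.0588 (limma range -0.0581 to 0.185). Bax in CD8 Treg against CD4 Treg was -0.0123 without a scaling factor. With no filter on low values, 452, 1072 and 685 genes and 2, 2 and 1 members were called in CD8 Treg against CD49lo, CD8 Treg against CD4 Treg and CD4 Treg against CD49lo. With a constant prior the counts were 2, 1192 and 1961 genes and 0, 1 and 1 members, and with a prior following log2 RPKM 365 genes were called in the first. The cause was not tested. Leaving out 1 library at a time, limma called 0 to 204 genes and 0 to 3 members in CD8 Treg against CD49lo, 0 to 976 genes and 0 to 3 members in CD8 Treg against CD4 Treg, and 0 to 3043 genes and 0 to 3 members in CD4 Treg against CD49lo. Limma-voom, added after seeing the data, called 930 and 1065 genes in CD8 Treg against CD4 Treg and 1352 and 1511 in CD4 Treg against CD49lo without CD4 Treg replicates 1 and 2. The counts of 0 came from fits without either CD49lo library, with 1 residual degree of freedom, where 100 or 109 genes with no residual variance were left out. Of all calls in CD8 Treg against CD49lo, 31.9% were higher, against 85.6% with no filter, 20.4% without scaling and 50.8% by limma-voom. In CD8 Treg against CD4 Treg it was 50.4%, against 68.1% with no filter. Without scaling the median of all genes in CD8 Treg against CD49lo moved to -0.16. A replicate block could be fitted only for CD4 Treg against CD49lo, since CD8 Treg is a single library. It called 3559 genes and the same 3 members, Bcl2, Mcl1 and Pmaip1. Its variance prior had infinite weight with 1 residual degree of freedom, as in limma-voom with a CD4 Treg replicate left out. Calls from those fits did not use each gene's own spread. The libraries numbered 1 did not deviate together (r = -0.02 across 13298 genes, which are not independent replicates). This gave no sign that the numbers pair the samples. A single correlation cannot exclude a pairing whose effect is small or differs between cell types. Depth limits the least abundant members, Pmaip1 with 80 reads in CD8 Treg and Bad with 55 in CD4 Treg replicate 2.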
